A study of Mus musculus with 9 samples.

Results

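The proteasome subunit genes of bone marrow-derived macrophages (BMDMs) were followed across cells given LPS plus BHB, cells given LPS and control cells. They were taken by symbol as every row of the count table that begins with Psma, Psmb, Psmc, Psmd or Psme and a digit, without the pseudogene symbols and without Psmb8 and Psmb9. This gave 43 of the 46095 gene symbols: 8 Psma, 9 Psmb, 7 Psmc, 14 Psmd and 5 Psme genes. One of them, Psmc3ip, shares the Psmc symbol but encodes a meiotic recombination protein and is no subunit. The series holds 9 RNA sequencing libraries of wild type Balb/c mice, labelled 6 week of age, in 3 groups of 3. The groups are LPS plus BHB, LPS alone and control. LPS is the usual short name of lipopolysaccharide, a component of the bacterial outer membrane, and BHB that of the ketone body beta-hydroxybutyrate. The labels spell out neither name and give no dose or time. No BHB-alone group was analysed here, so BHB was measured only in the presence of LPS. The labels do not say whether the replicates came from separate mice or cultures, so the p-values measure the spread between these libraries, which may be technical.

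The proteasome is the main protease of the cytosol and nucleus and degrades proteins that carry ubiquitin chains. Its core particle is a barrel of Psma (alpha) rings at the ends and Psmb (beta) rings in the middle, with the proteolytic sites inside the beta rings. A regulatory particle on the end of the barrel, built from Psmc ATPases and Psmd subunits, binds the ubiquitin chain, removes it and feeds the unfolded protein into the core. The Psme genes encode other caps, which open the core without ubiquitin. In macrophages the peptides made by the core also supply antigen presentation, and inflammatory signals are known to exchange the standard catalytic subunits for those of the immunoproteasome.

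Total counts lay between 29633411 and 32798920 per library, and 14026 genes were tested. Of the 43 members 42 passed the filter on low counts. The exception, Psmb11, the catalytic subunit of the thymic proteasome, had 0 counts in all 9 libraries, where a floor of 3 counts stood at 0.0915 to 0.1012 CPM (the per-million count) of total counts. The immunoproteasome subunit genes Psmb8 and Psmb9 were left out because reads are missing from their region of chromosome 17: Psmb8 had 5 to 16 counts per library and Psmb9 had 0. Other levels are in CPM after scaling by TMM (trimmed mean of M values). The TMM factors were 0.913 to 0.9214 in the LPS plus BHB libraries, 0.945 to 0.9547 in the LPS libraries and 1.1396 to 1.1534 in the control libraries. Without them, the median log2 fold change of all genes lay at -0.337 instead of -0.063 for LPS against control and at -0.382 instead of -0.057 for LPS plus BHB against control. The 3 control libraries were not alike: Acod1, a gene that LPS switches on in macrophages, had 238804, 234641 and 219825 counts in the LPS plus BHB libraries, 172641, 164320 and 156090 counts in the LPS libraries and 24, 1739 and 1808 counts in the control libraries. Results are therefore also given without control replicates 2 and 3. All 10 macrophage markers were detected, with summed levels of 15630 to 16190 CPM in the LPS plus BHB libraries, 9883 to 11260 CPM in the LPS libraries and 19710 to 23070 CPM in the control libraries. The summed neutrophil, lymphocyte, erythroid, stromal and mast cell markers each stayed at or below 10.12 CPM in every library. The dendritic cell markers summed to 16.43 to 17.5, 20.12 to 24.66 and 2.957 to 3.642 CPM in the LPS plus BHB, LPS and control libraries. Only 3 of these 7 markers passed the filter, and with LPS 2 rose and 1 fell against control. Zbtb46 made up most of the sum in treated libraries, with means of 13.6, 20.3 and 0.869 CPM in the same order. Cd209a fell, with means of 0.0113, 0.0346 and 1.23 CPM. Among the defining markers, Klrb1c, Fcer1a and Tpsb2 were at 0 in all libraries. The part of these differences in the proteasome values was not tested. In such bulk libraries fewer cells of a type and less RNA per cell cannot be told apart.

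Promoter sequences are shown for the member of each class with the largest rise in LPS over control libraries and for Psmb5, so that the letters before their start sites can be compared. They are the 250 bases before the start of a RefSeq transcript in mouse build GRCm38.p6, written 5′ to 3′ in the direction of the gene. Capitals mark matches on either strand to TGACNNNGC, the core of the antioxidant response element that NRF1 and NRF2 bind, or to CCAAT, the box bound by NF-Y. The other 3 motifs searched had no match in these 6 windows. The windows are chr12:55383972-55384221 (plus strand) for Psma6, chr14:54617996-54618245 (minus strand) for Psmb5, chr11:70525107-70525356 (plus strand) for Psmb6, chr14:45329574-45329823 (plus strand) for Psmc6, chr11:80428365-80428614 (plus strand) for Psmd11 and chr14:55591102-55591351 (minus strand) for Psme2.
Psma6: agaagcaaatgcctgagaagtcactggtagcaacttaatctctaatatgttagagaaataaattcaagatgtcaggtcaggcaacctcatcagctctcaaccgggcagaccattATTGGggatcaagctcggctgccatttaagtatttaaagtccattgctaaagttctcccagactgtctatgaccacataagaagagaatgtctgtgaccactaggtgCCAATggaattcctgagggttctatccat
Psmb5: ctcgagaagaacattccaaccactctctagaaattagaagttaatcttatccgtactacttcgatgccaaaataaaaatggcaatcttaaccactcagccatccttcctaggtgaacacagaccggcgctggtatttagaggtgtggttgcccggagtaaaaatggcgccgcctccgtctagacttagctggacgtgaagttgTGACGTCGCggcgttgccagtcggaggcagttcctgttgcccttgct
Psmb6: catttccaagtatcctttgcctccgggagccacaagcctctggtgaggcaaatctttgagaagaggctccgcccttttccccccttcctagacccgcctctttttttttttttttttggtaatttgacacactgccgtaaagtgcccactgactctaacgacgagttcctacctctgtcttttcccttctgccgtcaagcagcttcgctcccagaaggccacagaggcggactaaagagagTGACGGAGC
Psmc6: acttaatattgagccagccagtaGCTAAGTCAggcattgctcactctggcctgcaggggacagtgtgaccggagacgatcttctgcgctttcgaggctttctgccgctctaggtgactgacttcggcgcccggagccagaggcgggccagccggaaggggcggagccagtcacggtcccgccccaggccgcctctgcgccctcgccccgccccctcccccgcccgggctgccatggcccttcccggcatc
Psmd11: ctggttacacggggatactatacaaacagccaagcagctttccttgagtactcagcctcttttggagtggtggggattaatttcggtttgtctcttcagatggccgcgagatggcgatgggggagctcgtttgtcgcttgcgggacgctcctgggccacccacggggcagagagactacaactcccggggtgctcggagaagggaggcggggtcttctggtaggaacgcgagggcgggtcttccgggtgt
Psme2: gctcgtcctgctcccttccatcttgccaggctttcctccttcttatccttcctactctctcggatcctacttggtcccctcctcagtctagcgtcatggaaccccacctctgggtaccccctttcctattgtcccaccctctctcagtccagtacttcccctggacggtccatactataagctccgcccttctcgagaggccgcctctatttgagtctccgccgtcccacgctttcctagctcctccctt
The TGACNNNGC match began 47 bases before the start in Psmb5, 9 in Psmb6 and 227 in Psmc6. Psma6 held CCAAT matches that began 136 and 29 bases before the start, and the windows of Psmd11 and Psme2 held neither motif. The table gives Psma6 a further start downstream (window chr12:55398575-55398874), which held none of the motifs searched, and Psme2 also has another start. For these genes the most upstream start is shown.

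Over a window of 300 bases (250 before and 50 after the start), 36 of the 43 members had a promoter in the RefSeq table. TGACNNNGC lay in the promoters of 6 members, Psmb5, Psmb6, Psmc6, Psmd9, Psmd12 and Psme4, or 16.667%, against 13.991% of 27025 genes. CCAAT lay in 14 members, or 38.889%, against 41.058% of all genes. The core of the interferon-stimulated response element lay in 4 members, Psmb3, Psmd4, Psmd9 and Psme1, or 11.111%, against 3.993% of all genes. TTCNNNGAA, the gamma-activated site, lay in 1 member, Psmd2, or 2.778%, against 9.554%. A kappa B site lay in 0 members against 0.466% of all genes. Both strands were searched in each case, the motifs do not contain one another, and a match is a description of the letters only.

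In LPS libraries, most proteasome genes were higher than in control libraries, in every class. Of the 42 members tested, 37 rose, 0 fell and 5 were not called (edgeR quasi-likelihood test, adjusted p under 0.05 over all 14026 genes), where 79.8% of all genes tested were called, 38.4% higher and 41.4% lower. With scaling by library totals 34 rose and 4 fell. The median log2 fold change of the members was 0.81, against -0.06 over all genes tested. In a test against a fold of 1.5 on the same fit (glmTreat), 28 members rose and 0 fell, where 53.7% of all genes were called, 24% higher and 29.7% lower, and with library totals 15 rose past that fold. The 3 LPS libraries all lay above the 3 control libraries in 37 members, as they did in 39.6% of all genes. Over all genes 82.7% did not overlap in either direction and 43.1% lay below. Without control replicates 2 and 3, 41 of the 42 calls were the same and the median was 0.855, and the rise of Psmc3 was no longer called (adjusted p = 0.0806). By class, 6 of 8 Psma genes rose (median log2 fold change 0.86), 7 of 8 tested Psmb genes (0.77), 6 of 7 Psmc genes (0.79), 13 of 14 Psmd genes (0.90) and 5 of 5 Psme genes (0.93). The 5 genes not called were Psma1, Psma8, Psmb1, Psmc3ip and Psmd9.

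When BHB was added to LPS, most proteasome genes were lower than with LPS alone. Against LPS, 31 of 42 members fell, 0 rose and 11 were not called, where 50.7% of all genes tested were called, 24.4% lower and 26.4% higher (edgeR, adjusted p under 0.05). The falls were small: the median log2 fold change of the members was -0.30, against 0.01 over all genes, and the members ranged from -0.51 to 0.13. No member passed the test against a fold of 1.5 (glmTreat, 0 higher and 0 lower), which 12.7% of all genes passed, 8.59% upward and 4.07% downward. The 3 LPS plus BHB libraries all lay below the 3 LPS libraries in 33 members and above them in 1, against 28% and 28.7% of all genes and 56.7% in either direction. Without control replicates 2 and 3 the median was -0.301, but this comparison holds no control library. The control libraries enter it only through the scaling, the filter and the shared estimate of the spread. By class, 4 of 8 Psma genes fell (median log2 fold change -0.29), 5 of 8 tested Psmb genes (-0.27), 6 of 7 Psmc genes (-0.36), 11 of 14 Psmd genes (-0.27) and 5 of 5 Psme genes (-0.35). The falls of Psmd5, Psmd11 and Psme1 were not called when certain single LPS or LPS plus BHB libraries were left out.

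Against control, LPS plus BHB libraries still held more proteasome transcript: 34 members rose, 4 fell and 4 were not called, where 78.4% of all genes were called, 38% higher and 40.4% lower (edgeR, adjusted p under 0.05). With scaling by library totals 28 rose and 8 fell. The median log2 fold change of the members was 0.54, against -0.06 over all genes. Past a fold of 1.5, 15 members rose and 1 fell (glmTreat), where 49.9% of all genes were called, 23.3% higher and 26.6% lower, and 8 rose with library totals. The LPS plus BHB libraries lay wholly above control in 34 members and wholly below in 3, against 38.5% and 41.7% of all genes and 80.2% in either direction. The 4 that fell were Psma8, Psmc1, Psmc3 and Psmd9. Without control replicates 2 and 3 together 1 fell, and with DESeq2 2 fell. The comparisons share libraries, so their values are given side by side and not as separate evidence.

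**Figure D1:**
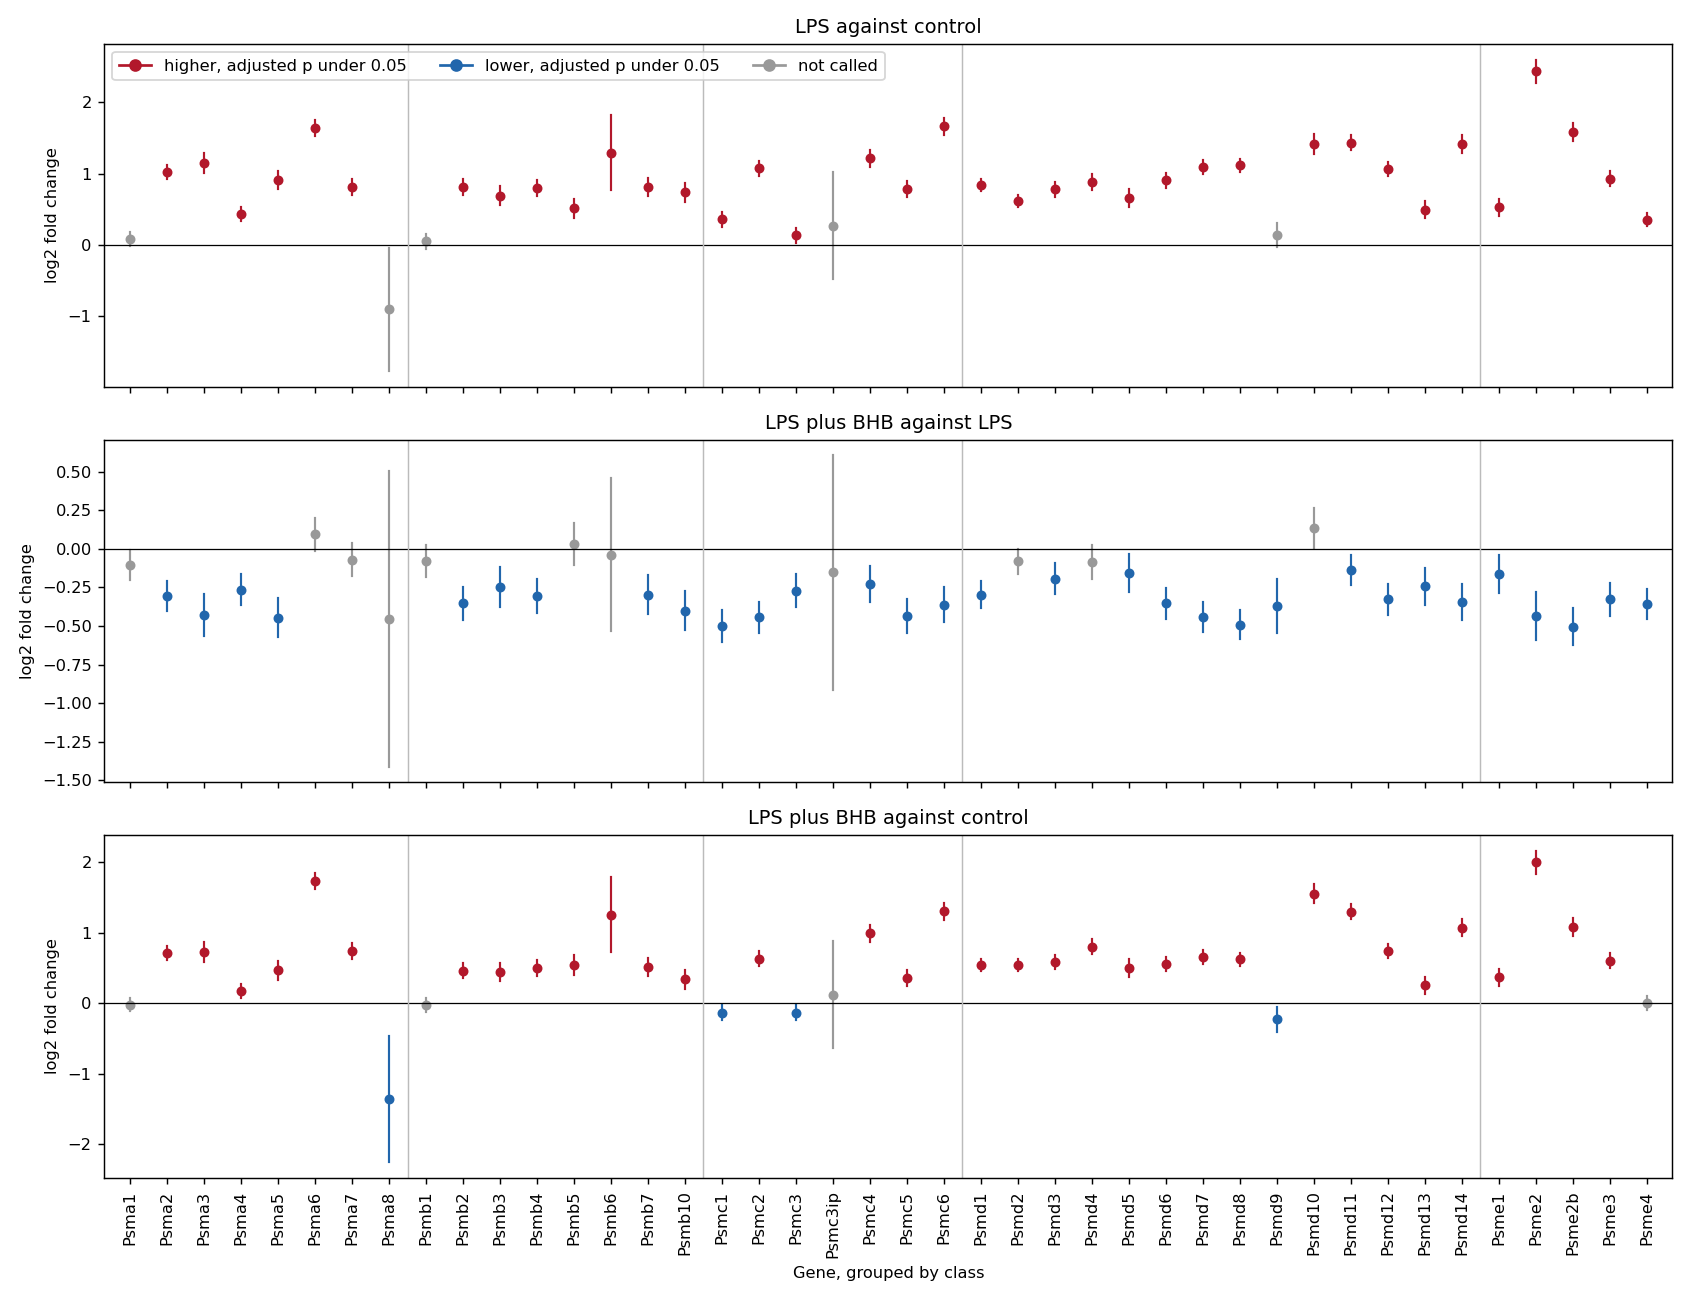
Log2 fold change of each of the 42 tested proteasome genes in the 3 comparisons, with its 95% interval from the edgeR fit and coloured by its call. Most points lie above 0 against control, with a median of 0.81 for LPS and 0.54 for LPS plus BHB, and below 0 for LPS plus BHB against LPS, with a median of -0.30.

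**Figure D2:**
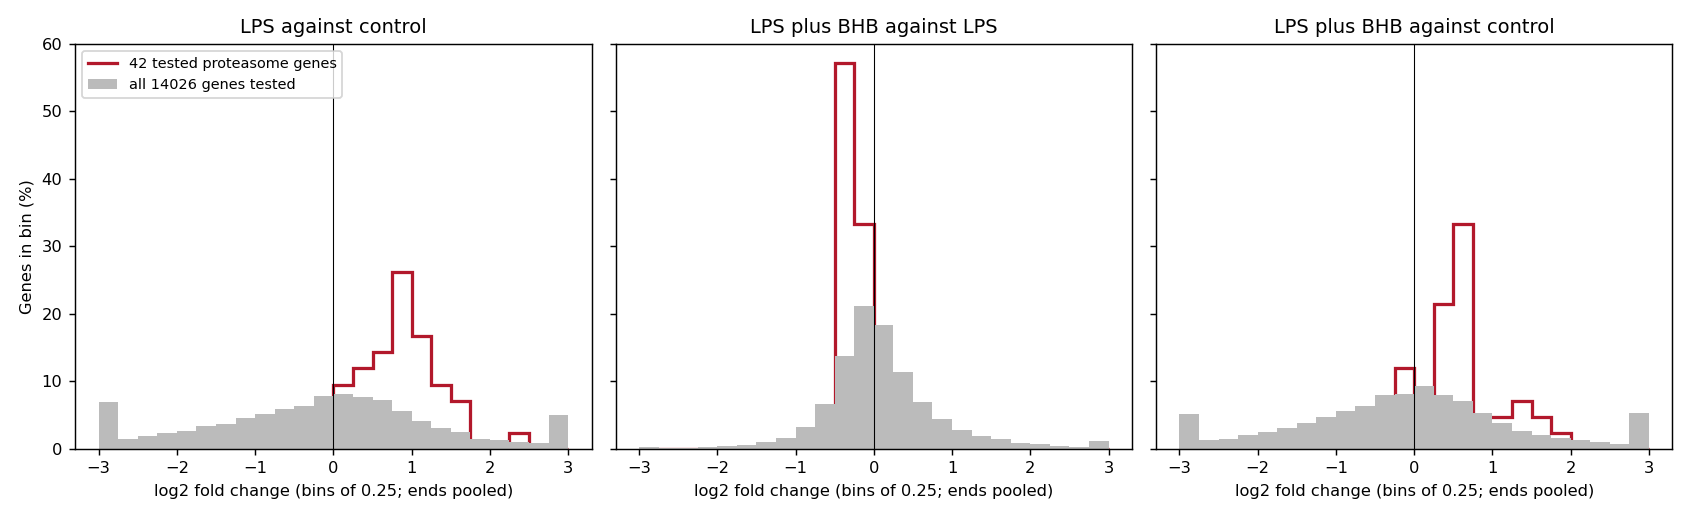
Share of genes in each bin of log2 fold change (bins of 0.25, values beyond 3 in either direction pooled in the end bins) for the 42 tested proteasome genes (red line) and all 14026 genes tested (grey). The proteasome genes lie to the right of the grey peak in both comparisons with control, and just to the left of 0 for LPS plus BHB against LPS.

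The alpha ring forms the gate of the core and carries no active site, and 6 of its 7 ubiquitous subunit genes rose with LPS. Psma6 was at 241, 213 and 219 CPM in the LPS plus BHB libraries, 219, 207 and 205 CPM in the LPS libraries and 64.2, 71.1 and 66.5 CPM in the control libraries. The treated libraries overlapped with each other and lay far above control. Its log2 fold change was 1.64 for LPS against control (SE 0.05, edgeR adjusted p = 8.27e-17), the largest rise of the class, and 1.74 for LPS plus BHB against control (SE 0.05, adjusted p = 3.42e-17). For LPS plus BHB against LPS it was 0.09 (95% interval -0.02 to 0.20, adjusted p = 0.147). The remaining alpha genes Psma2, Psma3, Psma4 and Psma7 all rose with LPS, by 0.44 to 1.16 on the log2 scale, and with BHB had values between -0.43 and -0.07, of which that of Psma7 was not called. Only 1.3% of the 31-base words of Psma6 (chromosome 12, 55384222 to 55418454, GRCm38) occur in other genes.

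Psma5 had the largest fall of the class with BHB. It was at 66.0, 68.0 and 57.2 CPM in the LPS plus BHB libraries, 88.0, 82.6 and 89.9 CPM in the LPS libraries and 47.5, 45.6 and 45.4 CPM in the control libraries, and the 3 groups did not overlap. It had a log2 fold change of -0.45 for LPS plus BHB against LPS (SE 0.06, edgeR adjusted p = 3.06e-06) and 0.91 for LPS against control (SE 0.06, adjusted p = 1.59e-11). Its counts are uncertain, since 61% of its 31-base words occur in pseudogenes or other genes. Psma1, by contrast, was not called in any comparison with TMM scaling: it was at 84.4, 87.2 and 86.3 CPM with LPS plus BHB, 92.1, 90.3 and 94.5 CPM with LPS and 86.6, 90.5 and 84.2 CPM in control. Its log2 fold change for LPS against control was 0.08 with TMM scaling (95% interval -0.01 to 0.18) and -0.19 with library totals, where it was called lower (adjusted p = 0.00079), while DESeq2 called it higher at 0.118 (adjusted p = 0.0376). Library totals also called it lower for LPS plus BHB against LPS (-0.15, adjusted p = 0.00827) and against control (-0.345, adjusted p = 8.95e-07).

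Psma8, the alpha subunit of testis proteasomes, had few counts. It was at 0.509, 0.278 and 0.565 CPM in the LPS plus BHB libraries, 0.692, 0.769 and 0.389 CPM in the LPS libraries and 1.27, 0.696 and 1.52 CPM in the control libraries. It was lower in LPS plus BHB than in control libraries (log2 fold change -1.36, SE 0.43, edgeR adjusted p = 0.00723), on 8 to 16 counts per LPS plus BHB library and 26 to 55 per control library. Against control, LPS alone gave -0.90 (SE 0.41, adjusted p = 0.0518), and this was called lower without control replicate 2 (adjusted p = 0.0197) and without LPS plus BHB replicate 2 (adjusted p = 0.0482).

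**Figure D3:**
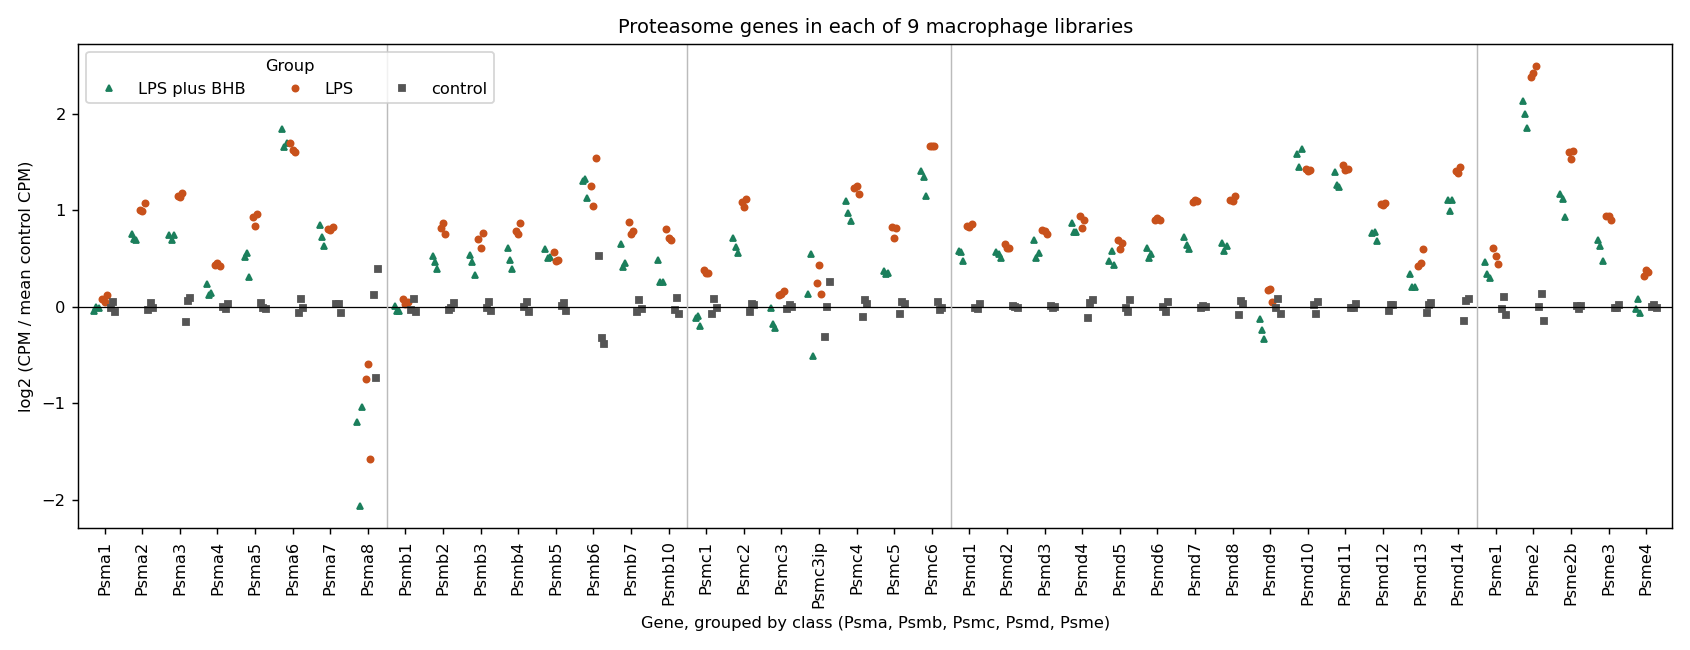
Level of each of the 42 tested proteasome genes in each of the 9 libraries, as log2 of its CPM over its mean control CPM, with the groups side by side (LPS plus BHB, LPS, control) and the classes parted by grey lines. Most genes stand highest in the LPS libraries and between LPS and control in the LPS plus BHB libraries. Psma8, Psmb6 and Psmc3ip, which had few counts, scatter most within groups.

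The beta ring holds the proteolytic sites. Its 4 structural subunit genes Psmb1, Psmb2, Psmb3 and Psmb4 had 3 rises with LPS and 3 falls when BHB was added. Psmb2, Psmb3 and Psmb4 had log2 fold changes of 0.69 to 0.82 for LPS against control and of -0.35 to -0.25 for LPS plus BHB against LPS. With TMM scaling Psmb1 was the one not called in any comparison, with 80.5, 77.7 and 77.5 CPM in the LPS plus BHB libraries, 84.6, 81.7 and 82.9 CPM in the LPS libraries and 78.3, 84.7 and 77.3 CPM in the control libraries. Its log2 fold change for LPS against control was 0.05 with TMM scaling (95% interval -0.05 to 0.15) and -0.22 with library totals, where it was called lower (edgeR adjusted p = 0.000269). Library totals also called it lower for LPS plus BHB against LPS (-0.13, adjusted p = 0.0278) and against control (-0.35, adjusted p = 1.12e-06).

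All 3 standard catalytic genes rose with LPS. Psmb5, the chymotrypsin-like subunit, was at 34.3, 32.2 and 32.4 CPM with LPS plus BHB, 33.6, 31.4 and 31.8 CPM with LPS and 22.8, 23.2 and 21.9 CPM in control. Both treated groups overlapped and lay above control. On the log2 scale the fold change was 0.51 for LPS against control (SE 0.07, edgeR adjusted p = 4.96e-07) and 0.03 for LPS plus BHB against LPS (95% interval -0.11 to 0.17), which was -0.02 with library totals. Since 71.7% of the 31-base words of Psmb5 occur in pseudogenes or other genes, its counts are uncertain.

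Psmb7, the trypsin-like subunit, differed between all groups. It was at 94.9, 80.7 and 82.9 CPM with LPS plus BHB, 112, 102 and 104 CPM with LPS and 58.2, 63.5 and 59.6 CPM in control, with no overlap. The fitted log2 fold change was 0.81 for LPS against control (SE 0.06, edgeR adjusted p = 9.49e-11) and -0.30 for LPS plus BHB against LPS (SE 0.06, adjusted p = 0.000293). The exons of Psmb7 overlap those of Nek6 on the other strand over 11.8% of their bases, and whether the counting used strand is not known.

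Psmb10, which replaces Psmb7 in the immunoproteasome, was also highest with LPS. It was at 86.6, 74.2 and 74.3 CPM in the LPS plus BHB libraries, 108, 102 and 100.2 CPM in the LPS libraries and 60.8, 66.2 and 59.1 CPM in the control libraries. LPS gave a log2 fold change of 0.74 against control (SE 0.06, edgeR adjusted p = 7.45e-10), and LPS plus BHB gave -0.40 against LPS (SE 0.06, adjusted p = 1.56e-05), the largest fall of the class. It was the only immunoproteasome catalytic gene that could be measured, and LPS plus BHB stood above control with TMM scaling (0.34, SE 0.06, adjusted p = 5.58e-05). With library totals this difference was 0.012 and was not called (adjusted p = 0.865).

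Psmb6, the caspase-like subunit, had the largest rise of the class on very few counts. It was at 3.39, 3.44 and 3.00 CPM with LPS plus BHB, 3.26, 2.83 and 3.995 CPM with LPS and 1.97, 1.1 and 1.05 CPM in control. The treated libraries overlapped and lay above control. It had a log2 fold change of 1.29 for LPS against control (SE 0.25, edgeR adjusted p = 8.86e-05), 1.26 for LPS plus BHB against control (SE 0.25, adjusted p = 0.000132) and -0.04 for LPS plus BHB against LPS (95% interval -0.53 to 0.46). Psmb6 (chromosome 11, 70525367 to 70527858, GRCm38) lies where other genes also had few counts: its 20 coding neighbours within 150 kb had a median of 132 counts over all 9 libraries, and the most of any, Cxcl16, had 3175. Pfn1, the gene of the abundant actin-binding protein profilin, stood there at 181 to 441 counts per library. This was noticed after the values were seen, and the level of Psmb6 cannot be read as a low expression of the subunit.

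The Psmc genes encode the ring of ATPases that unfolds the substrate, and all 6 rose with LPS and fell when BHB was added. Psmc6 rose most. It stood at 128, 122 and 107 CPM in the LPS plus BHB libraries, 153 CPM in each of the LPS libraries and 49.8, 47.0 and 47.8 CPM in the control libraries, without overlap. On the log2 scale the fold change was 1.66 for LPS against control (SE 0.06, edgeR adjusted p = 1.49e-16), -0.36 for LPS plus BHB against LPS (SE 0.05, adjusted p = 1.12e-05) and 1.30 for LPS plus BHB against control (SE 0.06, adjusted p = 1.06e-14).

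Psmc1 fell most with BHB and ended below control. It was at 78.2, 79.2 and 74.1 CPM in the LPS plus BHB libraries, 111, 108 and 108 CPM in the LPS libraries and 80.8, 89.8 and 83.8 CPM in the control libraries. The fitted log2 fold change was -0.50 for LPS plus BHB against LPS (SE 0.05, edgeR adjusted p = 4.44e-08) and 0.36 for LPS against control (SE 0.05, adjusted p = 9.93e-07), which was 0.09 and not called with library totals (0.0931). Against control LPS plus BHB gave -0.14 (SE 0.05, adjusted p = 0.0185), a call that was lost without control replicate 2 (adjusted p = 0.118), without LPS plus BHB replicate 3 (0.0897), without control replicates 2 and 3 (0.471) and with DESeq2 (0.0771). Its counts are uncertain, with 32.2% of its 31-base words shared with pseudogenes.

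Psmc3, another ATPase gene, was at 90.2, 80.6 and 78.2 CPM with LPS plus BHB, 98.9, 99.7 and 102 CPM with LPS and 89.9, 92.0 and 91.2 CPM in control. Its log2 fold change was -0.27 for LPS plus BHB against LPS (SE 0.05, edgeR adjusted p = 0.000179). For LPS against control it was 0.14 (SE 0.05, adjusted p = 0.0196), but -0.14 with library totals (adjusted p = 0.0189), and the rise was not called without control replicate 1 (adjusted p = 0.061). For LPS plus BHB against control it was -0.13 (SE 0.05, adjusted p = 0.0244). This call was lost without control replicate 2 (0.0596), LPS replicate 3 (0.051) or LPS plus BHB replicate 2 (0.111) or 3 (0.146). It was also lost with DESeq2 (0.0867), DESeq2 size factors (0.059), no filter (0.053) and only the 6 libraries compared (0.0716). Without control replicates 2 and 3 the log2 fold change was -0.11. The remaining ATPase genes, Psmc2, Psmc4 and Psmc5, had log2 fold changes between 0.79 and 1.22 for LPS against control and between -0.44 and -0.23 for LPS plus BHB against LPS. Psmc3ip was not called in any comparison and stood at 0.882, 1.18 and 0.565 CPM with LPS plus BHB, 0.956, 1.08 and 0.884 CPM with LPS and 0.648, 0.803 and 0.966 CPM in control.

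The non-ATPase subunits of the base carry the docking sites for ubiquitin chains. Psmd2, a scaffold that binds shuttle factors, was at 386, 380.2 and 369.6 CPM in the LPS plus BHB libraries, 408, 397 and 396 CPM in the LPS libraries and 262, 260.2 and 259 CPM in the control libraries. Its log2 fold change was 0.62 for LPS against control (SE 0.04, edgeR adjusted p = 6.48e-12) and -0.08 for LPS plus BHB against LPS (95% interval -0.16 to 0.00, adjusted p = 0.0971), although its LPS plus BHB libraries all lay below the LPS libraries. With DESeq2 this small fall was called (adjusted p = 0.0368), and 31.6% of the 31-base words of Psmd2 are shared with pseudogenes. Psmd4, the ubiquitin receptor that hands chains to the complex, was at 124, 116 and 116 CPM with LPS plus BHB, 131, 120.2 and 127 CPM with LPS and 62.9, 69.8 and 71.6 CPM in control. Its treated groups overlapped, and its log2 fold change was 0.89 for LPS against control (SE 0.05, adjusted p = 2.55e-12) and -0.08 for LPS plus BHB against LPS (95% interval -0.20 to 0.03). Psmd1, the other scaffold, had 0.84 and -0.30, and both were called.

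The lid removes the ubiquitin chain. All 8 of its genes rose with LPS, 7 of them past a fold of 1.5, with a median log2 fold change of 1.08, and all 8 fell when BHB was added, with a median of -0.34. Psmd3, Psmd6, Psmd7, Psmd12 and Psmd13, structural subunits of the lid, had log2 fold changes of 0.49 to 1.10 and of -0.44 to -0.19 in these comparisons. Psmd11, which clamps lid, base and core together, rose most: it was at 170.0, 155 and 153 CPM with LPS plus BHB, 179, 172 and 174 CPM with LPS and 64.0, 64.2 and 65.9 CPM in control. It had a log2 fold change of 1.44 for LPS against control (SE 0.05, edgeR adjusted p = 1.08e-16) and only -0.14 for LPS plus BHB against LPS (SE 0.05, adjusted p = 0.0188).

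Psmd14, the deubiquitinase of the lid, was at 104, 96.0 and 104 CPM in the LPS plus BHB libraries, 128, 126 and 132 CPM in the LPS libraries and 43.5, 50.2 and 51.0 CPM in the control libraries. The groups did not overlap, with log2 fold changes of 1.42 for LPS against control (SE 0.06, edgeR adjusted p = 3.04e-15) and -0.34 for LPS plus BHB against LPS (SE 0.06, adjusted p = 2.69e-05). Psmd8 had the largest fall of the class with BHB. It was at 295, 278 and 289 CPM with LPS plus BHB, 400.4, 398 and 413 CPM with LPS and 175, 194 and 190.0 CPM in control, and its log2 fold change was -0.49 for LPS plus BHB against LPS (SE 0.05, adjusted p = 1.26e-08) and 1.11 for LPS against control (SE 0.05, adjusted p = 3.38e-15).

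The chaperones Psmd5, Psmd9 and Psmd10 help to build the regulatory particle and leave the finished complex, and they did not move together. Psmd10, also called gankyrin, was at 55.0, 50.2 and 57.1 CPM with LPS plus BHB, 49.5, 49.0 and 49.3 CPM with LPS and 18.6, 17.5 and 19.1 CPM in control. It was the only tested member whose LPS plus BHB libraries all lay above the LPS libraries. That difference was not called (log2 fold change 0.13, SE 0.06, edgeR adjusted p = 0.0773) except without LPS plus BHB replicate 2 (adjusted p = 0.0233). Against control it rose by 1.42 with LPS (SE 0.07, adjusted p = 2.53e-14) and by 1.55 with LPS plus BHB (SE 0.07, adjusted p = 5.61e-15) on the log2 scale.

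Psmd9 was lowest with LPS plus BHB. It was at 18.5, 17.2 and 16.0 CPM with LPS plus BHB, 22.9, 23.0 and 21.0 CPM with LPS and 20.05, 21.4 and 19.3 CPM in control. On the log2 scale the fold change was -0.37 for LPS plus BHB against LPS (SE 0.08, edgeR adjusted p = 0.000813) and -0.23 for LPS plus BHB against control (SE 0.08, adjusted p = 0.0156). The call against control was not made without control replicate 2 (adjusted p = 0.0736) or LPS plus BHB replicate 3 (0.0809). Without control replicates 2 and 3 the log2 fold change was -0.212. For LPS against control it was 0.14 (95% interval -0.03 to 0.31) and -0.13 with library totals, and it was called higher without LPS replicate 3 (adjusted p = 0.0401). Of its exon bases 25.5% overlap the noncoding gene Gm26745 on the other strand, so its counts are uncertain. Psmd5 was at 48.4, 52.2 and 47.2 CPM with LPS plus BHB, 56.6, 52.8 and 55.3 CPM with LPS and 34.5, 33.6 and 36.7 CPM in control. It had a log2 fold change of 0.65 for LPS against control (SE 0.06, adjusted p = 3.17e-09) and -0.16 for LPS plus BHB against LPS (SE 0.06, adjusted p = 0.0355), which was not called without LPS replicate 1 (0.128) or 3 (0.0643) and without LPS plus BHB replicate 1 (0.0918) or 3 (0.108).

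The Psme genes encode the activator caps, and all 5 rose with LPS and fell when BHB was added. Psme2, which with Psme1 forms the interferon-inducible cap PA28 that favours antigenic peptides, had the largest rise of all members. It was at 168, 152 and 138 CPM in the LPS plus BHB libraries, 199, 205 and 216 CPM in the LPS libraries and 38.3, 42 and 34.5 CPM in the control libraries. The 3 groups lay far apart. The fitted log2 fold change was 2.43 for LPS against control (SE 0.08, edgeR adjusted p = 2.09e-13), -0.43 for LPS plus BHB against LPS (SE 0.07, adjusted p = 0.000131) and 2.00 for LPS plus BHB against control (SE 0.08, adjusted p = 2.51e-12).

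Psme1, its partner in the cap, also rose. It was at 107, 98.1 and 95.2 CPM with LPS plus BHB, 119, 112 and 105 CPM with LPS and 76.6, 83.2 and 73.0 CPM in control. The treated groups overlapped, and the log2 fold change was 0.53 for LPS against control (SE 0.06, edgeR adjusted p = 5.52e-08) and -0.16 for LPS plus BHB against LPS (SE 0.06, adjusted p = 0.026), which was not called without LPS replicate 1 (0.149) or 2 (0.0585) or without LPS plus BHB replicate 2 (0.0774) or 3 (0.0881). Psme2b, a gene close in sequence to Psme2, had the largest fall of all members with BHB. It was at 79.5, 76.8 and 67.1 CPM with LPS plus BHB, 107, 102 and 108 CPM with LPS and 35.5, 34.8 and 35.6 CPM in control, and its log2 fold change was -0.51 for LPS plus BHB against LPS (SE 0.06, adjusted p = 2.55e-07).

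The reads of Psme2 and Psme2b cannot be fully parted, since 76.5% of the 31-base words of Psme2b occur in Psme2 and 33.5% of those of Psme2 occur in Psme2b. Their summed level was 205.3 to 247.5 CPM in the LPS plus BHB libraries, 306.4 to 323.8 CPM in the LPS libraries and 70.0 to 76.8 CPM in the control libraries, so the groups stayed apart whichever gene the reads came from. Psme3, the nuclear cap PA28 gamma, was at 112, 108 and 96.8 CPM with LPS plus BHB, 134, 133 and 130.2 CPM with LPS and 69.1, 68.9 and 70.7 CPM in control. It had a log2 fold change of 0.93 for LPS against control (SE 0.05, edgeR adjusted p = 5.74e-13) and -0.33 for LPS plus BHB against LPS (SE 0.05, adjusted p = 1.56e-05).

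Psme4, the large cap PA200, was the only Psme gene whose LPS plus BHB and control libraries overlapped. It was at 108, 116 and 105 CPM with LPS plus BHB, 137, 142 and 140.4 CPM with LPS and 109, 110.2 and 108 CPM in control. Its log2 fold change was 0.36 for LPS against control (SE 0.05, edgeR adjusted p = 4.69e-07), which was 0.08 and not called with library totals (adjusted p = 0.0969), and -0.35 for LPS plus BHB against LPS (SE 0.05, adjusted p = 1.81e-06). Against control LPS plus BHB gave 0.00 (95% interval -0.09 to 0.10), while with library totals LPS plus BHB was lower (-0.32, adjusted p = 2.04e-06).

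Transcript levels within the complex were compared on a scale that corrects for length, as TPM (count over length, scaled to the same sum in every library) from the summed exon length of each gene. Summed over the 40 genes that encode subunits, activators or chaperones, the complex held 5723 ± 211 TPM in the LPS plus BHB libraries, 7092 ± 80.1 TPM in the LPS libraries and 4199 ± 54.1 TPM in the control libraries (SD, n = 3 each). The same 3 groups did not overlap in any of the 5 class sums. The median over the genes of a class did overlap between LPS plus BHB and control libraries in 2 classes. It was 102.7 to 107.0 and 106.3 to 113.4 TPM for Psma, and 120.4 to 132.8 and 122.0 to 130.6 TPM for Psmc. For Psmb, Psmd and Psme the medians did not overlap. The Psme class had the widest ratio of LPS to control. Its sum was 936 ± 65.7 TPM with LPS plus BHB, 1272 ± 19.4 TPM with LPS and 560.3 ± 6.07 TPM in control. Most of this difference lay in Psme2 (419 TPM with LPS and 89.5 TPM in control) and Psme2b (452 and 174 TPM). The reads of these genes cannot be fully parted. Psme1 (181 and 145 TPM), Psme3 (160 and 97.5 TPM) and Psme4 (59.6 and 53.8 TPM) differed less. The Psma sum was 1277 ± 47.6 TPM with LPS plus BHB, 1409 ± 20.9 TPM with LPS and 798 ± 4.64 TPM in control. Of these, Psma6 alone held 630.2, 609 and 225 TPM in the same order. The Psmb sum was 958 ± 47.2 TPM with LPS plus BHB, 1191 ± 15.1 TPM with LPS and 846 ± 10.6 TPM in control. Both classes hold subunits of the same core. The Psmc sum was 782 ± 32.6, 1039 ± 8.56 and 696 ± 19.5 TPM, and the Psmd sum 1771 ± 30.2, 2181.9 ± 26.8 and 1299 ± 38.2 TPM, each in LPS plus BHB, LPS and control libraries. No test was run on these sums.

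**Figure D4:**
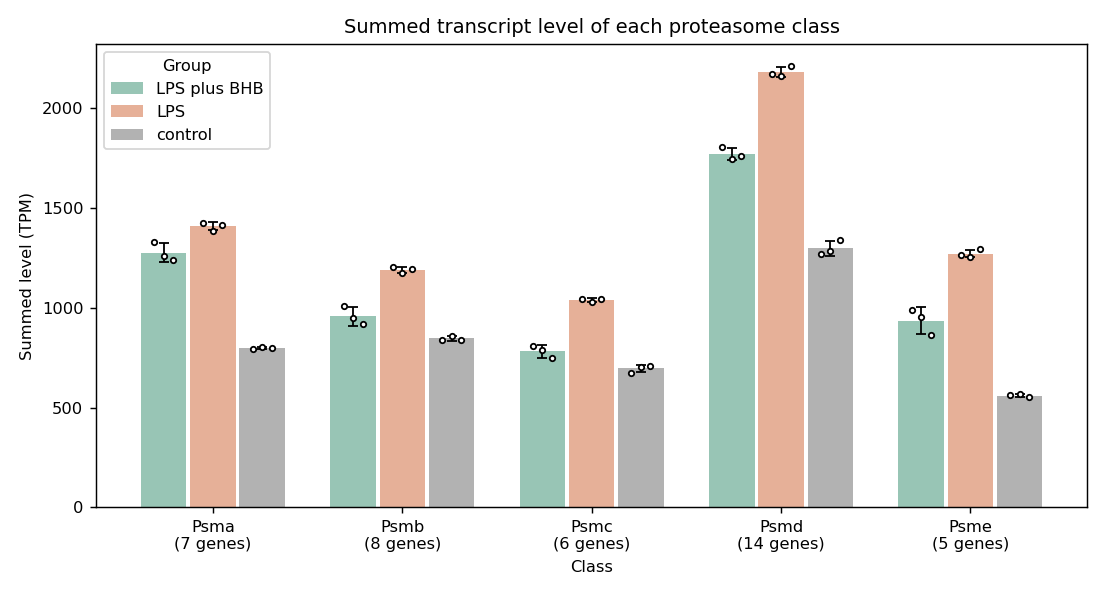
Summed level in TPM of the genes of each class (bars, mean of 3 libraries; error bars, SD; points, single libraries) in LPS plus BHB, LPS and control libraries. In every class the LPS bar is highest and the control bar lowest, from 560.3 TPM for Psme in control to 2181.9 TPM for Psmd with LPS.

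With TPM from summed exon lengths, subunits that occur in equal number in the complex differed widely. Within the alpha ring Psma6 had the highest level and Psma3 the lowest: 630.2 and 34.8 TPM in LPS plus BHB, 609 and 48.3 TPM in LPS and 225 and 25.0 TPM in control libraries. Within the ATPase ring the span was narrower, with the lowest gene Psmc2 at 72.0, 101 and 55.3 TPM, and the highest at 183 TPM (Psmc4), 221 TPM (Psmc5) and 181 TPM (Psmc1) in LPS plus BHB, LPS and control libraries. In LPS libraries Psmc5 and Psmc4 did not differ beyond their spread (both 221 TPM, SD 9.61 and 5.54, n = 3 each). The order of the levels changed between groups at its top. In LPS plus BHB libraries Psma6, Psmd8 and Psmd2 stood highest, at 630.2, 326 and 325 TPM, and Psmd8 and Psmd2 did not differ beyond their spread (SD 7.43 and 4.94 TPM, n = 3 each). In LPS libraries Psma6 was followed by Psmd8, Psme2b and Psme2 at 472, 452 and 419 TPM, where 76.5% of the words of Psme2b occur in Psme2. In control libraries Psmd2, Psmd8 and Psma6 led at 267, 252 and 225 TPM. These orders rest on summed exon lengths, which exceed the longest transcript unevenly. For Psme2 they are 1764 and 962 bases, for Psma6 1234 and 1042 bases and for Psma3 3894 and 2846 bases. The order and the spread of single genes were not examined with other lengths, so they hold for this length only. Of the words of Psma3, 20.3% occur in pseudogenes or other genes, so its counts are uncertain. The lowest members were Psmb6, Psmc3ip and Psma8, each at or below 6.43 TPM in every group, and Psmb11 at 0.

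**Figure D5:**
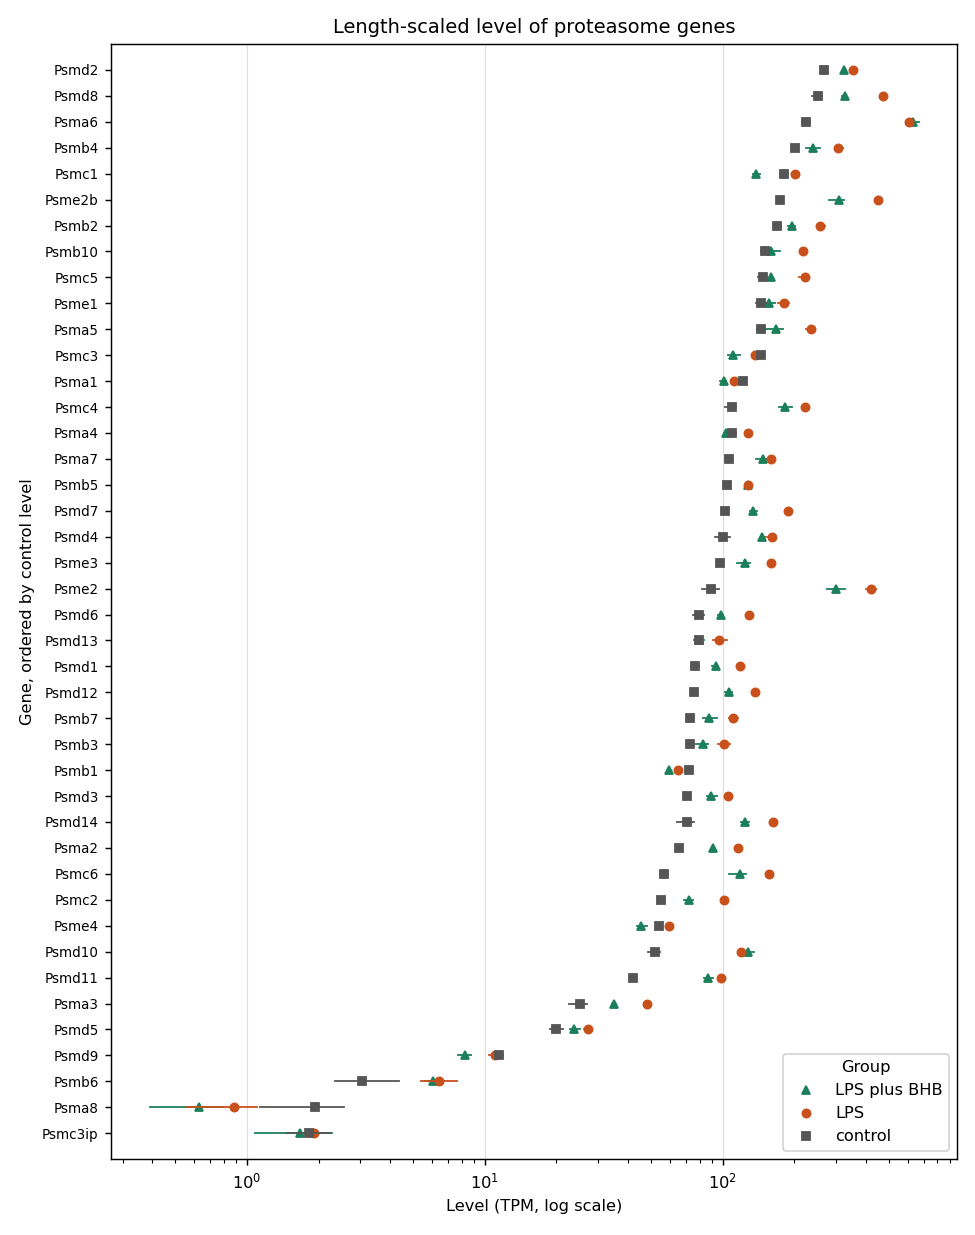
Mean level in TPM on a log scale of each of the 42 tested proteasome genes in LPS plus BHB, LPS and control libraries (points; lines, lowest to highest of 3 libraries), ordered by control level. Control levels run up to the 267 TPM of Psmd2. Psme2 and Psma6 lie far to the right with LPS, at 419 and 609 TPM.

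The spread within groups was small for most members. The median coefficient of variation of the 42 tested members was 5.76% in LPS plus BHB, 2.78% in LPS and 3.83% in control libraries. Among the 39 members with a mean of at least 10 CPM, the widest spread was that of Psme2 in the LPS plus BHB (9.79%) and control (9.86%) libraries and that of Psmd13 in the LPS libraries (6.61%). LPS plus BHB replicate 1 had the highest share of proteasome counts of its group, with 3998 CPM of its total counts, and replicates 2 and 3 had 3765 and 3694. The LPS libraries held 4767, 4700.5 and 4812 and the control libraries 3068, 3148 and 3120.3 CPM of their total counts. The groups did not overlap on this unscaled measure either.

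Other genes of the pathway are given as counts of called genes, to be read against all genes tested, of which 38.4% were higher and 41.4% lower for LPS against control and 26.4% higher and 24.4% lower for LPS plus BHB against LPS. Of 8 genes for the transcriptional control of proteasome genes, 4 rose and 2 fell with LPS against control, and 5 rose and 2 fell for LPS plus BHB against LPS. The LPS counts lie near the shares of all genes. Nfe2l1, whose product NRF1 drives subunit genes when proteasome activity is short, was at 1229.6, 1235 and 1143 CPM in the LPS plus BHB libraries, 1220.1, 1220.2 and 1144 CPM in the LPS libraries and 157, 167 and 173 CPM in the control libraries. Its treated groups overlapped, and its log2 fold change was 2.85 for LPS against control (SE 0.05, edgeR adjusted p = 7.3e-21) and 0.01 for LPS plus BHB against LPS (95% interval -0.09 to 0.11). Nfe2l2, the gene of the related factor NRF2, gave -0.05 (95% interval -0.14 to 0.04) for LPS against control and rose by 0.42 for LPS plus BHB against LPS (SE 0.04, adjusted p = 6.69e-08). Mafk, a small partner of both factors, fell by 1.02 on the log2 scale for LPS plus BHB against LPS (SE 0.07, adjusted p = 1.32e-10). The other small partners of the list did not fall. The mean of Mafg was 357 CPM with LPS plus BHB and 332 CPM with LPS, and that of Maff 175 and 154 CPM.

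Of the 5 tested chaperones of core assembly and related factors, 2 rose and 2 fell with LPS, and 0 rose and 4 fell when BHB was added, where 38.4% of all genes rose and 41.4% fell with LPS and 26.4% rose and 24.4% fell with BHB. The LPS counts are at the shares of all genes. Pomp, which matures the core, was at 43.9, 34.0 and 35.8 CPM with LPS plus BHB, 58.1, 56.6 and 62.1 CPM with LPS and 65.3, 67.9 and 66.3 CPM in control. It lay lower with LPS than in control (log2 fold change -0.17, SE 0.07, edgeR adjusted p = 0.0352), where most subunits were higher, and fell further with BHB (-0.64, SE 0.08, adjusted p = 9.46e-07). Of the list, AI314180, the symbol of Ecpas, an adaptor of the proteasome, had the smallest p against control, at 0.58 with LPS (SE 0.04, adjusted p = 8.26e-11) and 0.62 with LPS plus BHB (SE 0.04, adjusted p = 3.31e-11).

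Of 10 proteasome-bound regulators 8 rose and 0 fell with LPS (all genes, 38.4% and 41.4%), and 0 rose and 6 fell when BHB was added (all genes, 26.4% and 24.4%). Adrm1, a ubiquitin receptor, rose by 1.38 with LPS (SE 0.06, edgeR adjusted p = 3.14e-14) and fell by 0.42 when BHB was added (SE 0.06, adjusted p = 8.08e-06). Txnl1, a thioredoxin of the regulatory particle, rose by 2.45 with LPS (SE 0.05, adjusted p = 4.06e-20). Usp14, a deubiquitinase, rose by 0.47 and fell by 0.15 in the same comparisons (SE 0.05 each, adjusted p = 5.62e-08 and 0.0208). The inhibitor gene Psmf1 was not called, at 0.04 for LPS against control (95% interval -0.14 to 0.22) and 0.07 for LPS plus BHB against LPS (95% interval -0.11 to 0.25). Zfand2a, which encodes the stress-induced binding protein AIRAP, fell by 0.62 on the log2 scale when BHB was added (SE 0.04, adjusted p = 9.01e-11).

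Of 9 ubiquitin shuttle and p97 complex genes 8 rose and 1 fell with LPS (all genes, 38.4% and 41.4%), and 1 rose and 5 fell when BHB was added (all genes, 26.4% and 24.4%). Nploc4, a cofactor of p97, rose by 1.60 with LPS (SE 0.04, edgeR adjusted p = 1.52e-18), and Vcp, the gene of p97 itself, fell by 0.40 when BHB was added (SE 0.05, adjusted p = 3.96e-07). Of 6 genes for ubiquitin and its activating enzymes 5 rose and 0 fell with LPS, and 2 rose and 3 fell with BHB. Of 9 peptidases that act after the proteasome 4 rose and 4 fell with LPS, and 3 rose and 3 fell with BHB, which lies near the shares of all genes in both comparisons. Among these Tpp2 rose by 0.99 with LPS (SE 0.04, adjusted p = 8.19e-15), and Erap1, which trims peptides in the endoplasmic reticulum, fell by 0.98 with BHB (SE 0.06, adjusted p = 9.58e-11).

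Against control, LPS plus BHB libraries had 4 rises and 3 falls among the transcriptional control genes, 1 and 2 among the assembly chaperones, 6 and 1 among the bound regulators, 7 and 1 among the shuttle and p97 genes, 5 and 0 among the ubiquitin genes and 3 and 3 among the peptidases, where 38% of all genes rose and 40.4% fell. In the lists other than that of the ubiquitin genes, the smallest p belonged to Nfe2l1 at 2.86, AI314180 at 0.62, Txnl1 at 2.13, Nploc4 at 1.37 and Npepps, the puromycin-sensitive aminopeptidase gene, at 0.68 (log2 fold changes).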

How the data were processed

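Bulk RNA sequencing of BMDMs gave 1 table of raw read counts per gene symbol, deposited by the authors, with 9 libraries in 3 groups of 3. Reads were aligned with HISAT2 to mm10, per the submitters' processing notes. For the counter, its annotation, its strand setting and the tool versions, names were not given in the sources used here. Library RNA was taken with Trizol, per the labels' protocols. From the deposited counts, genes were filtered with filterByExpr (minimum count 10; 14026 genes, 99.956% of counts), scaled by TMM and tested with edgeR 4.0.16 (R 4.3.3) by robust quasi-likelihood over all 9 libraries with group as the only term, 6 residual degrees of freedom, Benjamini-Hochberg over all genes tested, two-sided, threshold 0.05. A second call used glmTreat against a fold of 1.5. The biological coefficient of variation was 6.72%.

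Replicates of a group differed by more than sampling noise (chi-square per degree of freedom 3.17 to 11.2), so each counted as 1 sample. The labels' replicate numbers did not pair the samples. TPM used summed exon lengths of the GENCODE annotation of GRCm38, in which 34508 symbols with 98.75% of the counts had a length. Shared sequence is the share of 31-base words of a gene's transcripts found in other genes. Depth was similar across libraries, so the precision of a value follows its count, and Psma8, Psmb6 and Psmc3ip are the least precise of the members tested. The scripts were tested on simulated data, with changes set in genes of at least 1 CPM. For LPS plus BHB against LPS they recovered 44.8% of 1.25-fold changes and 79.1% of 1.5-fold changes. In that simulation 12793 of 12993 genes tested were unchanged, while 50.7% of all genes were called in the data. In the data 39 members had a mean of at least 10 CPM. The setting thus differs from that of the members, and these shares do not give the recovery for them. A member that was not called may still differ by a small fold. Alternatives were DESeq2 1.42.0, other scalings and filters, fewer libraries, a replicate block and other lengths, totals and promoter windows.

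Members and lists were chosen with earlier results of these data known. Named were the largest rise and fall of each class among called members, the catalytic subunits, activators, ubiquitin receptors, the deubiquitinase, chaperones, tissue-specific members and Psmc3ip, and for pathway lists Nfe2l1, Nfe2l2, Pomp, Psmf1, Adrm1, Usp14 and the smallest p per list, of which 1 gene is not reported here. All others are given by ranges, except that Psma1, Psmb1, Psmc3 and Psmd1 were added after their values were seen. The same holds for the list genes Mafg, Maff, Zbtb46 and Cd209a.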

Additional observations from a re-analysis of the deposited data

Results flagged for a closer look

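A signal appeared in 1 of the symbols left out as pseudogenes. Psmb7-ps1 had 7, 4 and 6 counts in the LPS plus BHB libraries, 8, 13 and 9 counts in the LPS libraries and 1, 5 and 3 counts in the control libraries, so the lowest LPS count, 8, lay above the highest control count, 5. It is given here because the symbol was not among the measured members and its LPS counts lay above those of control. The parent gene Psmb7 rose in the same libraries. Whether these few reads came from the pseudogene or from Psmb7 was not tested.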

How the results depend on the processing

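The direction and call of most members held. With the replicate number as a block, 42 of 42 member calls were the same in each comparison, and the numbers did not pair the samples: the deviations of same-numbered libraries correlated at -0.017 to 0.039. For LPS against control the median of the members was 0.538 with library totals, 0.846 with DESeq2 size factors, 0.838 with no filter, 0.847 with DESeq2 and 0.855 without control replicates 2 and 3. Library totals gave 15 members past 1.5-fold and 4 lower, and the fit of the 6 libraries compared gave 1 lower. Under library totals the sign turned for Psma1 (-0.19), Psmb1 (-0.222), Psmc3 (-0.137) and Psmd9 (-0.134). The cause was not tested.

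For LPS plus BHB against LPS, 0 members were lower past a fold of 1.5 (glmTreat). The uncalled sign turned for Psmb5 (-0.02, library totals), and, when 1 library was left out, for Psmb6 (-0.148 to 0.093; positive without LPS or LPS plus BHB replicate 3) and Psmc3ip (-0.426 to 0.079; positive without LPS plus BHB replicate 3).

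For LPS plus BHB against control, library totals gave 8 past 1.5-fold, 8 lower and a median of 0.218, and turned Psma4 (-0.154), Psmc3ip (-0.205), Psmd13 (-0.074) and Psme4 (-0.323). glmTreat gave 15 higher and 1 lower. DESeq2 size factors, no filter, 6 libraries and DESeq2 each gave 2 lower, and DESeq2 gave 0 lower past 1.5-fold. Without control replicates 2 and 3 there was 1 lower and 0 past 1.5-fold. Psma1 turned to 0.006 with DESeq2 size factors and 0.005 with DESeq2, and Psmb1 to 0.011 without control replicates 2 and 3. With 1 library left out, the uncalled differences of Psma1 (-0.044 to 0.007), Psmb1 (-0.053 to 0.013), Psmc3ip (-0.144 to 0.362) and Psme4 (-0.031 to 0.043) lay on both sides of 0.

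Leaving out 1 library at a time gave medians of 0.812 to 0.851 for LPS against control, -0.336 to -0.269 for LPS plus BHB against LPS and 0.534 to 0.567 for LPS plus BHB against control. The counts were 36 to 38 higher (27 to 29 past 1.5-fold) and 0 to 1 lower, then 0 to 1 higher and 28 to 31 lower, then 34 higher (13 to 17 past 1.5-fold) and 1 to 4 lower (0 to 1 past 1.5-fold), in the same order.

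With the longest transcript as length, median levels were 136.37 TPM in LPS plus BHB, 169.54 TPM in LPS and 108.31 TPM in control libraries. The log2 ratio of summed TPM was then 0.688 for Psma, 0.594 for Psmc and 1.313 for Psme for LPS against control, and 0.538 for Psma and 0.865 for Psme for LPS plus BHB against control. Over protein-coding genes only, the medians were 145.76 TPM in LPS and 99.58 TPM in control libraries. In the 250 bases before the start, 0 of the 36 matched members held TTCNNNGAA, against 8.13% of all genes. Low counts limit Psma8, Psmb6 and Psmc3ip.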
